A study of Mus musculus with 4 samples.

Results

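TGF-β was compared in CMT64 cells that had all received TNF-α. CMT64 is a mouse lung carcinoma line, which the paper describes as derived from an alveologenic tumor of a C57BL/lcrf mouse. Both libraries compared come from cells kept for 24 h with 10 ng/ml of TNF-α, alone in TNFa and together with 5 ng/ml of TGF-β in TGFb_TNFa, and neither library is untreated. The series holds 2 more libraries, control (no cytokine) and TGFb (5 ng/ml of TGF-β alone), which are used here for values set side by side. Each condition is 1 library of polyadenylated RNA from 1 cell line, so that no value could be set against a spread between cultures.

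Genes entered the comparison where the TNFa and TGFb_TNFa tables together held at least 100 reads in exons. Of 25704 genes listed, 11729 did so, 7904 had fewer reads and 6071 had none. Levels are RPKM, the reads in a gene's exons scaled to its exon length and to the mapped reads, and folds are ratios of RPKM, TGFb_TNFa over TNFa. The interval after a fold is the 95% interval (Clopper-Pearson) that counting error alone allows, which does not cover differences between cultures. A gene is called higher at a fold above 2 with an RPKM above 2 in TGFb_TNFa, and lower at a fold under 0.5 with an RPKM above 2 in TNFa. No p-value is given.

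TGF-β is a secreted dimer that binds a pair of receptor serine/threonine kinases, which phosphorylate Smad2 and Smad3; these join Smad4 and act on genes in the nucleus together with partners such as AP-1. In epithelial cells it is known for arresting growth, for inducing matrix genes and for epithelial-mesenchymal transition (EMT), in which junction proteins such as E-cadherin give way to mesenchymal ones. TNF-α signals through its own receptors to NF-κB and to the kinases that activate AP-1, and induces chemokines and cytokines. The comparison asks which genes TGF-β raises or lowers when cells receive the inflammatory stimulus over the same 24 h.

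As a check of the cell type, the epithelial keratins Krt8 and Krt18 stood at 1294 and 807 RPKM in TNFa and at 1051 and 731 in TGFb_TNFa. The epithelial markers Cdh1 and Krt19, given below, were lower in TGFb_TNFa. Epcam, another epithelial marker, was nearly absent, with 10 reads (0.0632 RPKM) in TNFa and 16 (0.103 RPKM) in TGFb_TNFa. Markers of other cells were scarce. The 14 haematopoietic markers summed to 2.32 RPKM in TNFa and 2.63 in TGFb_TNFa, the 12 endothelial markers to 1.72 and 1.23, and the 12 fibroblast markers to 0.489 and 11.7, nearly all of the last from Col1a1. Several markers of lung epithelium were scarce too. Nkx2-1, the lung and thyroid lineage factor, had 0.803 RPKM in TNFa and 0.0417 in TGFb_TNFa. Of 19 airway and alveolar markers 13 did not reach 100 reads, beside 13975 of all 25704 genes listed. The 19 markers still summed to 95.7 RPKM in TNFa and 60.7 in TGFb_TNFa, and 4 of them had an RPKM above 2 in either library. Aqp5 and Foxj1, given below, were among those tested.

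Adding TGF-β left most genes near their level in TNFa, while 456 were higher and 512 lower by more than 2-fold. The median fold was 1.04, and 8898 genes (75.9%) lay within 1.5-fold of no difference. The higher genes were 3.89% of the 11729 tested, and the lower genes 4.37%; with the stricter limits of a fold under 0.25 and an RPKM above 1 in TNFa, 232 genes (1.98%) were lower. The counting interval lay wholly past the fold limit for 412 of the higher and 455 of the lower genes. The values nearest the limits were 2.003 for Dusp8, just inside, and 1.998 for E2f7, just outside, and 0.4997 for Nkain4, inside, and 0.5001 for Abi3, outside, at the lower limit. Changes of 10-fold or more were found among 84 higher and 70 lower genes. In 74 higher genes the TNFa library was under 0.5 RPKM. In bulk samples, fewer cells of a type and less RNA per cell cannot be told apart. Abundant mRNAs differed as well, and of 594 genes with an RPKM above 100 in either library 42 were higher and 46 lower.

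**Figure D1:**
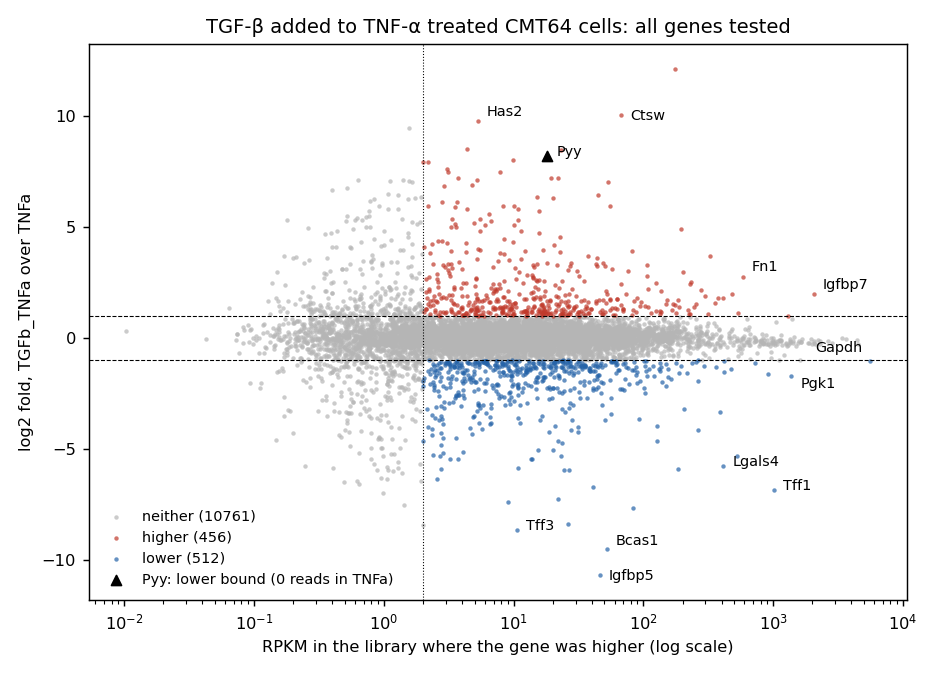
Log2 fold of TGFb_TNFa over TNFa (y axis) against the RPKM in the library where the gene was higher (x axis, log scale), 1 point for each of the 11729 genes tested. Red points are the 456 genes called higher and blue points the 512 called lower. Dashed lines mark 2-fold and the dotted line an RPKM of 2. The triangle is Pyy, with its 0 reads in TNFa set to the floor of 3 reads. Ctsw and Has2 stand high and Igfbp5 lowest, and Fn1, Igfbp7, Tff1 and Pgk1 are among the abundant mRNAs called.

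The highest folds went from a few reads to a clear level. Ctsw, a cysteine protease known from cytotoxic lymphocytes, went from 0.0628 to 67.7 RPKM, a fold of 1078 (495 to 2939). Has2, which makes the matrix polysaccharide hyaluronan, had 2 reads in TNFa and 1714 in TGFb_TNFa, and its fold of 875 has a wide interval, 242 to 7233. Pyy, the gene of the gut hormone peptide YY, had 0 reads in TNFa and 863 reads (18.2 RPKM) in TGFb_TNFa. Its fold was 294 when the 0 is set to a floor of 3 reads, and the lower end of its counting interval was 238. Cldn4, a tight junction claudin, had 0.0639 RPKM in TNFa and 23.1 in TGFb_TNFa, a fold of 362 (191 to 793).

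Many of the other genes among the 15 highest folds had few reads in TNFa. Chrna1, a subunit of the acetylcholine receptor of muscle, had a fold of 374 (146 to 1373) at 4.39 RPKM in TGFb_TNFa. Wisp1, a matricellular protein of the CCN family, had 0.0379 RPKM in TNFa and 9.96 in TGFb_TNFa, a fold of 263. The adhesion receptor Adgra1 (247, interval 84.2 to 1201), the receptor tyrosine kinase Ephb2 (199), the neuronal membrane proteins Elfn1 (180.0) and Iglon5 (151), and Tmem59l (179, interval 49.3 to 1486) all had fewer than 14 reads in TNFa. Crispld2 had 3 reads in TNFa and 720 in TGFb_TNFa, a fold of 245 (83.5 to 1191), but only 33.6% of its reads mapped uniquely and it overlaps the gene model Gm20388, so that its reads cannot be told from those of that model. Il11, a cytokine of the IL-6 family and a known TGF-β target, stood at 0.147 RPKM in TNFa and 21.8 in TGFb_TNFa, a fold of 148 (98.6 to 234). Sema4f, a membrane semaphorin, had 0.132 RPKM in TNFa and 19.5 in TGFb_TNFa, a fold of 147 (109 to 205).

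At the other end, Igfbp5, a secreted binding protein for insulin-like growth factors, had 21585 reads in TNFa and 13 in TGFb_TNFa, or 46.3 and 0.0285 RPKM, a fold of 0.000615 (0.000327 to 0.00105). Bcas1, a gene known from amplified regions of breast cancer, went from 52.2 to 0.0724 RPKM, a fold of 0.00139 (0.000807 to 0.00222). The trefoil factors, small peptides that mucous epithelia of the gut secrete, were low together. Tff1 had 1014 RPKM in TNFa and 8.73 in TGFb_TNFa, a fold of 0.0086 (0.00768 to 0.00961). Tff2 had 185 RPKM in TNFa and 3.06 in TGFb_TNFa, a fold of 0.0165 (0.0138 to 0.0196). Tff3 kept 1 read of 405, a fold of 0.00252 (6.37e-05 to 0.0141). The 3 genes lie side by side on chromosome 17.

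Among the other genes of the 15 lowest folds, Sptssb, a small subunit of the enzyme that starts sphingolipid synthesis, went from 26 to 0.0793 RPKM, a fold of 0.00305. Lrrc26, an auxiliary subunit of BK potassium channels, had a fold of 0.00607, the methyltransferase-like gene Mettl7b 0.00966, the bHLH factor Atoh8 0.0122, and the receptor phosphatase Ptpru 0.016 (from 26.6 to 0.426 RPKM). The steroid dehydrogenase Hsd17b14 was at 0.0165, the peroxisomal thiolase Acaa1b at 0.0168 and Arhgap40 at 0.0173. Depp1 went from 83.3 to 0.417 RPKM and Apoc2, the activator of lipoprotein lipase, from 22.1 to 0.146 RPKM, with only 14.4% and 0.214% of their reads unique, so that other copies or overlapping genes may share these reads.

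**Figure D2:**
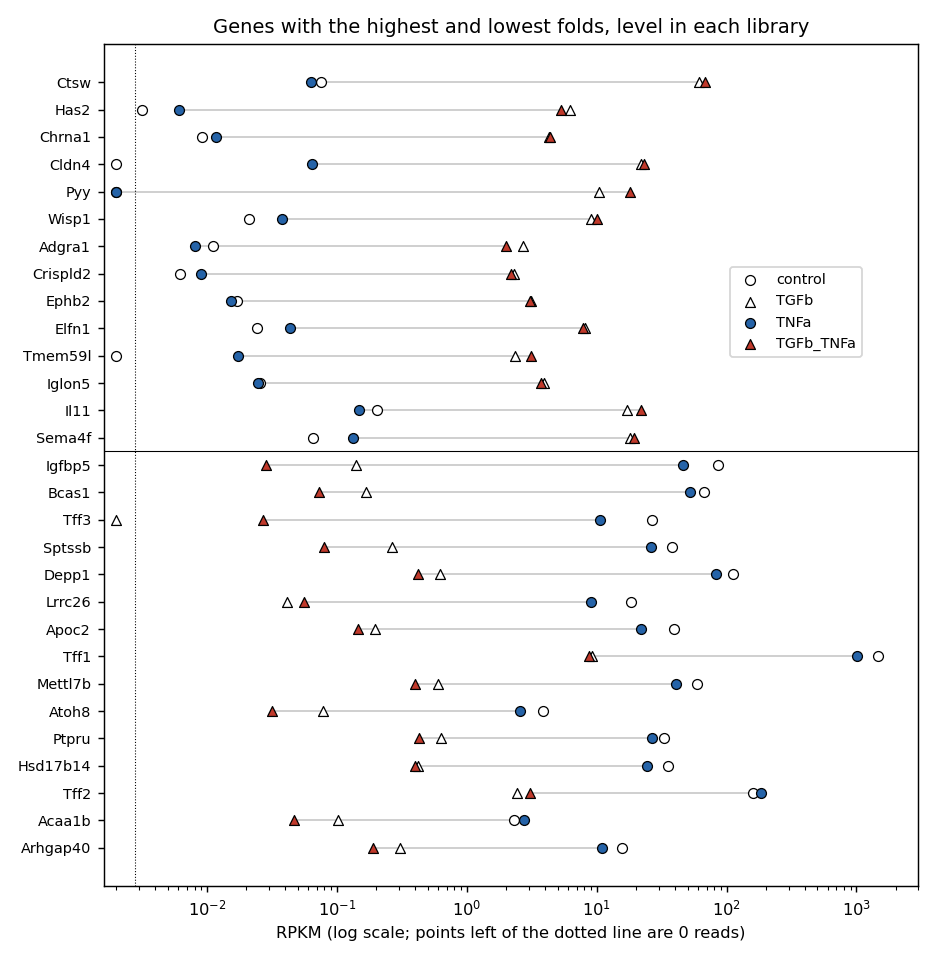
RPKM (x axis, log scale) in each of the 4 libraries for genes among the 15 highest and 15 lowest folds of TGFb_TNFa over TNFa, leaving out unnamed gene models. Circles are libraries without TGF-β and triangles with it, filled symbols have TNF-α, and symbols left of the dotted line have 0 reads. In all genes shown both triangles lie on the same side of both circles.

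Measured by the difference in RPKM rather than by the fold, the largest gains included secreted proteins and the largest losses in glycolytic enzymes and a mucosal peptide. Igfbp7, which binds insulin-like growth factors and insulin, gained most, from 519 to 2058 RPKM, a fold of 3.97 (3.93 to 4.01). Clu, the secreted chaperone clusterin, went from 646 to 1308 RPKM (fold 2.02, or 1.94 and not called with TMM factors), Lgals1, the secreted lectin galectin-1, from 776 to 1393 RPKM (fold 1.79, under the limit), and Fn1, fibronectin, from 85.5 to 583 RPKM (fold 6.82). The fifth gain was the gene model Gm21887, from 646 to 1056 RPKM, of whose reads 1.44% were unique. Gapdh, a glycolytic enzyme often used as a reference, lost most, from 5557 to 2742 RPKM, a fold of 0.493 (0.492 to 0.495); its reads were 1.06% unique, and the gene is known for its many pseudogene copies. Tff1, the glycolytic enzymes Pgk1 (from 1379 to 426 RPKM) and Pkm (from 1618 to 811 RPKM, fold 0.501) and the translation factor Eef1a1 (from 4466 to 3720.1 RPKM, fold 0.833) followed.

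Promoters of the genes with the most extreme folds are printed to show what lies near their start sites. They are the 4 highest and 2 lowest named folds with an RPKM above 10 in the higher library for which the RefSeq table (GRCm38.p6) holds a promoter, 250 bases before to 50 bases after a start site, all on the minus strand and written 5′ to 3′. Capitals mark matches on either strand to the Smad box CAGAC, the AP-1 site TGANTCA, the Tead site GGAATG and the Snail and Zeb E-box CACCTG.
Cldn4, chr5:134946885-134947184: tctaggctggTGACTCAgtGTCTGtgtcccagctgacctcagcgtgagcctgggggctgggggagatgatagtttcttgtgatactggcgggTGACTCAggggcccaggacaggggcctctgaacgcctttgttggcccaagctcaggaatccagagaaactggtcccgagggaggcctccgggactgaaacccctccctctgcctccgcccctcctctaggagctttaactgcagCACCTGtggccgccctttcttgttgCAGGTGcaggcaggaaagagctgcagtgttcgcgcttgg
Pyy, chr11:102107783-102108082: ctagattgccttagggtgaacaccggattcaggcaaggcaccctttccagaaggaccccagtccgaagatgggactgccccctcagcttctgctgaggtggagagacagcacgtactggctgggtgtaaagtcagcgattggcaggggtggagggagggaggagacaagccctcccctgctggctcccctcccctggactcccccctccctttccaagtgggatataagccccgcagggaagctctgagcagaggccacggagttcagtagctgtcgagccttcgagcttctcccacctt
Il11, chr7:4782808-4783107: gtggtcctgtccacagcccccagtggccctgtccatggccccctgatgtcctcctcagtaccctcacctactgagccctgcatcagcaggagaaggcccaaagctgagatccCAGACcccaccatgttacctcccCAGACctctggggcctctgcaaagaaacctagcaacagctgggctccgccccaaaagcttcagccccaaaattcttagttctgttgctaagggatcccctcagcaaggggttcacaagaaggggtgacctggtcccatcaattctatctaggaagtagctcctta
Sema4f, chr6:82939720-82940019: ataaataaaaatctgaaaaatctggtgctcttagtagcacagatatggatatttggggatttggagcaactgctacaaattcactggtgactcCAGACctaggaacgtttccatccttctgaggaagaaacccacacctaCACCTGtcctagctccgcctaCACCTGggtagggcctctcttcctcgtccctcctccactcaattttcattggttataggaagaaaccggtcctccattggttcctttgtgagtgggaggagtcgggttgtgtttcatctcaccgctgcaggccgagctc
Igfbp5, chr1:72874816-72875115: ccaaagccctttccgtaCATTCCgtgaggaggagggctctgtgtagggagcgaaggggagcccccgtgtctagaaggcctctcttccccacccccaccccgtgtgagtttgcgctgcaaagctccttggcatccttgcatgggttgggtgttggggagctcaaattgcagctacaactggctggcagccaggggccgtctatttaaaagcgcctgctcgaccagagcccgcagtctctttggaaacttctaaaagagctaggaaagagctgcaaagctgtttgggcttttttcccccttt
Sptssb, chr3:69859845-69860144: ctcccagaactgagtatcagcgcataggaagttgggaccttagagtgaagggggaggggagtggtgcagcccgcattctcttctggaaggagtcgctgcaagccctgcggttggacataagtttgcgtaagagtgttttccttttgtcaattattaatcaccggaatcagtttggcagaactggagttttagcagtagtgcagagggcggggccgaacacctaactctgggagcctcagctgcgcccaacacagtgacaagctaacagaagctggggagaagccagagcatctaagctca
The Cldn4 promoter held 2 AP-1 matches, 1 Smad box and 2 Snail and Zeb E-boxes, that of Il11 2 Smad boxes, and that of Sema4f 1 Smad box and 2 E-boxes. The Igfbp5 promoter held 1 Tead match, and those of Pyy and Sptssb held none of the 4 motifs.

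Promoters were matched for 9180 of the 11729 genes tested, among them 333 higher and 374 lower genes. A Smad box was in 53.2% of the promoters of higher genes, 47.6% of those of lower genes and 47.3% of all, and the palindrome GTCTAGAC in 1 promoter of a higher gene and 20 of all. The AP-1 site was in 7.21% of higher, 9.89% of lower and 4.62% of all promoters, and the Tead site in 16.2%, 15.2% and 11.6%. CACCTG was in 18.3% of higher, 25.4% of lower and 17.0% of all promoters, and the general E-box CANNTG, of which it is a case, in 62.8%, 71.1% and 62.2%. The GC box GGGCGG was in 69.4%, 58.8% and 66.6%, in the same order, beside a median GC content of 63.0%, 59.8% and 61.3%. The κB decamer, GGGAN followed by TTTCC, was in 2 higher, 6 lower and 36 of all promoters. These are matches of letters, with no test.

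**Figure D3:**
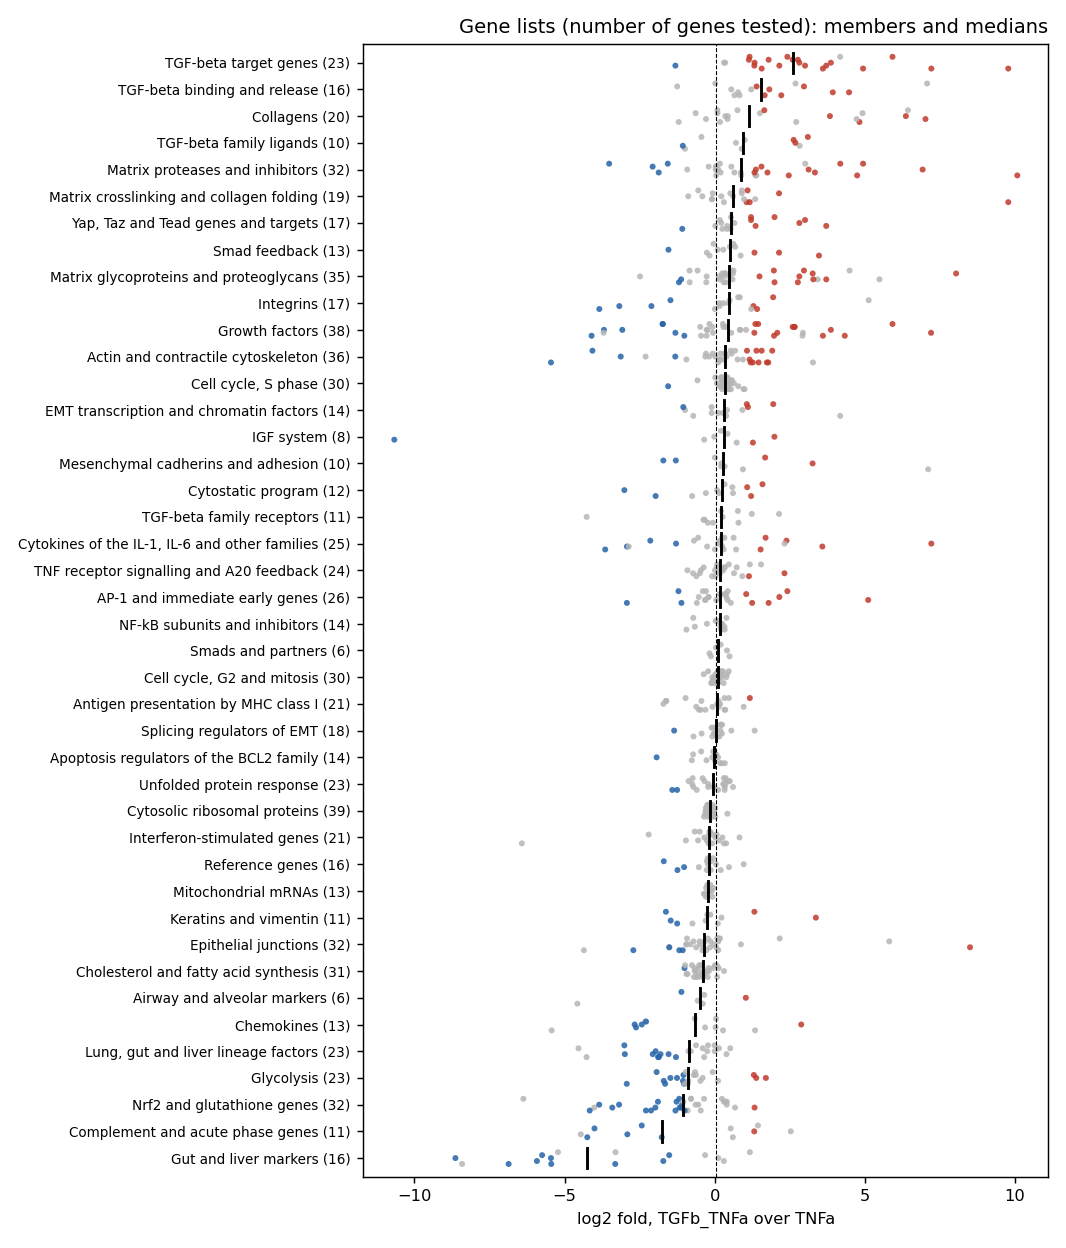
Log2 fold of TGFb_TNFa over TNFa (x axis) of the members of each gene list with at least 6 genes tested (y axis, number tested in parentheses). Red points are called higher, blue lower and grey neither, the black bar is the list's median and the dashed line the median of all genes tested. The target genes of TGF-β lie highest, with a median of 2.60, and the gut and liver markers lowest, with -4.26. All lists were put together with earlier results of these data known.

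Within the TGF-β pathway, ligands, binding proteins, feedback genes and targets were among the called genes, and receptors and Smads were not. Each count of members below stands beside the 3.89% higher and 4.37% lower of all genes and the median log2 fold of 0.06. Of 23 ligands and processing genes 10 were tested, with 3 higher and 1 lower. Bmp1, a protease that matures procollagens, went from 6.63 to 56.8 RPKM (fold 8.58), Bmp7 from 1.62 to 10.4 RPKM (6.44) and Inhba, the activin A subunit, from 2.54 to 15.7 RPKM (6.18). Bmp4 was lower, from 5.24 to 2.51 RPKM (0.479). Among the TGF-β isoforms Tgfb1 had 16.9 RPKM in TNFa and 31.5 in TGFb_TNFa (fold 1.86), Tgfb3 a fold of 1.63 with 70.9% of its reads unique, and Tgfb2 a fold of 7.11 at only 0.934 RPKM.

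Proteins that bind or release the ligands included 7 higher genes of 16 tested and none lower, with a median log2 fold of 1.53. Ltbp3, a latent TGF-β binding protein, was the most abundant, from 116 to 410.2 RPKM (fold 3.53, interval 3.49 to 3.56). Ltbp2 (22.2) and Ltbp4 (2.63) were higher too, as were Fstl3 (from 5.34 to 81.5 RPKM, 15.3) and Fst (4.65), which bind activins, and Thbs1, thrombospondin, which can activate latent TGF-β (from 25.9 to 203 RPKM, 7.85). Vasn was at 3.17 with 3.99% unique reads. Lrrc32, the anchor of latent TGF-β on the plasma membrane, had 0 reads in TNFa and 1.11 RPKM in TGFb_TNFa, under the level limit. Chrd, a BMP antagonist, had 1.75 RPKM in TNFa and 0.739 in TGFb_TNFa and stayed below it as well.

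None of 11 receptors passed the limits. The TGF-β receptors Tgfbr1 and Tgfbr2 had 14.8 RPKM in TNFa and 14.2 in TGFb_TNFa, and 22.2 and 17.7, folds of 0.96 and 0.795. Tgfbr3, the coreceptor betaglycan, was at 0.2 RPKM in TNFa and 0.0104 in TGFb_TNFa, and Acvrl1 had a fold of 4.41 at 0.355 RPKM. Smads and partners also had none of 6 past the limits, with folds of 0.888 for Smad2, 1.33 for Smad3 and 1.03 for Smad4. In the feedback list 3 of 13 were higher. Smad7, the inhibitory Smad, went from 14.2 to 35.6 RPKM (2.5, interval 2.42 to 2.59), Pmepa1 from 30.9 to 136 RPKM (4.41) and Ldlrad4 from 0.677 to 7.51 RPKM (11.1), the last 2 being membrane proteins that sequester Smads. Skil, the corepressor SnoN, was at 1.82, and Nedd4l, a ubiquitin ligase that acts on activated Smads, was lower, from 8.3 to 2.86 RPKM (0.344).

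Of 28 known target genes 23 were tested, and 19 were higher and 1 lower. Some of them are named in the paper for these libraries, and the list was put together with earlier results of these data known, so that it is not independent evidence of its direction. Ctgf, a matricellular CCN protein, went from 24.6 to 323 RPKM (13.1, interval 12.8 to 13.5). The Wnt ligands Wnt9a (60.5), Wnt7a (from 1.57 to 23 RPKM, 14.6) and Wnt7b (from 3.9 to 23.6 RPKM, 6.05) and the platelet-derived growth factors Pdgfa (from 3.6 to 43.8 RPKM, 12.2) and Pdgfb (2.5) were higher. Smaller folds were those of Ier3 (4.44), the GTPase Rhob (2.96), heme oxygenase Hmox1 (2.51), the sphingosine kinase Sphk1 (2.24) and the repressor Bhlhe40 (2.2). Tagln, a smooth muscle actin-binding protein, stayed at 1.02 RPKM in TNFa and 1.3 in TGFb_TNFa, and Angptl4 was lower (0.404).

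Some EMT regulators differed. Zeb1 and Zeb2, repressors of E-cadherin, went from 4.57 to 9.84 RPKM (2.15, interval 2.05 to 2.26) and from 0.87 to 3.36 RPKM (3.86, interval 3.57 to 4.18). Snai1, Snail, had 7 reads in TNFa and 124 in TGFb_TNFa, a fold of 18.1 (8.52 to 45.9) at 1.01 RPKM, under the level limit, whereas Snai2, Slug, was at 0.933 (0.845 to 1.03). Snai2 had 3.32, 5.88, 5.33 and 4.98 RPKM in control, TGFb, TNFa and TGFb_TNFa, its lowest level being that of control. Sox4 was higher (from 108 to 226 RPKM, 2.1), the chromatin factor Hmga2 was at 1.9 (from 76.1 to 144 RPKM), and Ets1 was lower (0.484). The whole list had 3 higher and 1 lower of 14 tested. Without TNF-α, TGFb over control, the folds were 2.62 for Zeb1, 5.85 for Zeb2, 4.46 for Snai1, 1.77 (1.59 to 1.98) for Snai2 and 2.98 for Hmga2.

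Of 32 junction genes tested, 4 were lower and 1, Cldn4, higher, with a median log2 fold of -0.35. A counting interval below 1 was found for 21 of these 32, beside 4049 of all 11729 genes tested. Cdh1, E-cadherin, went from 253 to 121 RPKM, a fold of 0.479 (0.473 to 0.484), and remained the most read cadherin. Tjp3 (from 19.9 to 3.04 RPKM, 0.153), the plaque protein Ppl (0.351) and occludin, Ocln (0.442), were lower, and Tjp1, ZO-1, was at 0.705 (0.689 to 0.722). The epithelial factor Grhl2 had 0.451 RPKM in TNFa and 0.022 in TGFb_TNFa, and the epithelial splicing factor Esrp2 21.5 and 13.2 RPKM. Cdh2, N-cadherin, had 2 reads in TNFa and 21 in TGFb_TNFa, too few for the comparison. Among other adhesion genes Ncam1 (from 2.82 to 27 RPKM, 9.57) and Pcdh1 (3.2) were higher, and Alcam (0.408) and the intestinal cadherin Cdh17 (0.306) lower.

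Of the intermediate filament genes tested, 2 were higher and 3 lower of 11. Vim, vimentin, was already at 905 RPKM in TNFa and at 763 in TGFb_TNFa, a fold of 0.843 (0.837 to 0.85). Krt19 went from 915 to 297 RPKM (0.324), and Krt20 (0.421) and Krt23 (0.362), keratins of gut epithelium and glands, were lower, while Krt14, a basal keratin, went from 4.71 to 48.6 RPKM (10.3) and nestin, Nes, had a fold of 2.5.

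Of 20 collagens tested, 5 were higher and none lower, with a median log2 fold of 1.13. Col7a1, of anchoring fibrils, went from 0.412 to 53.4 RPKM (129.6), Col5a1 from 0.185 to 15.3 RPKM (82.4), Col1a1 from 0.402 to 11.4 RPKM (28.2), Col8a1 from 0.159 to 2.27 RPKM (14.3) and Col27a1 from 6.02 to 18.9 RPKM (3.14). Basement membrane collagens differed less, Col4a1 at 1.34 and Col4a2 at 1.27, and Col15a1 had a fold of 0.435 at 1.75 RPKM in TNFa.

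Glycoproteins and proteoglycans had 10 higher and 2 lower of 35 tested. Fn1 was named above; Fbln2, fibulin-2, went from 123 to 479.8 RPKM (3.92), the heparan sulfate proteoglycans Gpc1 (from 4.61 to 44.2 RPKM, 9.6) and Sdc3 (9.73) were higher, and so was Sparc (2.81). Nid1, nidogen, was lower (0.461), as was Efemp1 (0.438), and the laminin chain Lamc1 was at 0.56. The list of matrix crosslinking and collagen folding had 5 of 19 higher and none lower. Among them is Has2, described above, which makes hyaluronan, and the others are Pcolce2 (4.42), P4ha3 (2.24), and Fkbp10 (2.14) and Loxl2 (2.09), of whose reads 58.2% and 67.7% were unique.

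Proteases and their inhibitors split, 12 higher and 4 lower of 32. Higher were the metalloproteases Adam12 (from 0.0391 to 4.74 RPKM, 121), Mmp10 (from 0.591 to 15.8 RPKM, 26.8), Adam8 (18.1), Mmp24 (10.1), Adamts6 (8.73) and membrane-type Mmp14 (from 51 to 150.1 RPKM, 2.94), the urokinase Plau (3.38) and the lysosomal Ctsl (2.51), beside the inhibitor Timp1 (2.59, 63.6% unique reads) and Htra1 (5.53, 41.3% unique). Lower were Mmp15 (from 16.6 to 1.46 RPKM, 0.0875), Adamts9 (0.239), Htra3 (0.275) and Spint2, an inhibitor of membrane serine proteases (from 215 to 72.9 RPKM, 0.338).

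Integrin chains differed in both directions. The fibronectin receptor chains Itga5 (from 6.49 to 25 RPKM, 3.85) and Itgb1 (from 91.8 to 244 RPKM, 2.66) were higher with Itgb2 (2.44), whereas Itgb4, of hemidesmosomes (from 38.9 to 14 RPKM, 0.36), Itga1 (0.0698), Itga7 (0.111) and Itgb7 (0.232) were lower, 3 and 4 of 17 tested. In the actin list 10 were higher and 4 lower of 36. Moesin, Msn, went from 79 to 298 RPKM (3.77), while its relative ezrin, Ezr, a linker of actin to microvilli, went from 362 to 146 RPKM (0.402), and villin, Vil1, from 14 to 0.319 RPKM (0.0229). Cald1 (3.33), Cnn2 (2.75), Actn1 (2.41), Flnc (2.62) and Pdlim7 (3.44) were higher, and the myosin genes Mylk (0.114) and Myh14 (0.0595) lower. Actb differed by 1.15-fold.

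The Tead factors, which bind DNA for the coactivators Yap and Taz, differed in direction. Tead2 went from 30.2 to 69.8 RPKM (2.31, interval 2.25 to 2.38) and Tead3 from 6.72 to 15.5 RPKM (2.31, interval 2.18 to 2.45), Tead1 was at 1.16 and Tead4 was lower, from 8.18 to 3.87 RPKM (0.473, interval 0.44 to 0.509). Yap1 and Wwtr1, the gene of Taz, had folds of 1.2 and 1.02. Of the known targets Ctgf, Ankrd1 (from 9.4 to 75.6 RPKM, 8.04), Cyr61 (from 15 to 106 RPKM, 7.05), Crim1 (3.98) and Amotl1 (2.57) were higher, whereas Axl (1.12) and Ccnd1 (1.44, 55.1% unique) stayed under 2-fold. In all 7 of 17 were higher and 1 lower. Like all the lists, this one was put together with earlier results of these data known.

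AP-1 subunits differed in opposite directions. Fosb went from 0.293 to 10.1 RPKM (34.5, interval 27.9 to 43.3), Jun from 12.6 to 67.6 RPKM (5.35, interval 5.15 to 5.56), Junb from 108 to 374 RPKM (3.47, interval 3.41 to 3.53) and Fosl2 from 11.1 to 22.9 RPKM (2.07, or 1.99 and not called with TMM factors). Fos, by contrast, went from 5.31 to 0.699 RPKM (0.132, interval 0.107 to 0.161), Jund was at 1.35 and Fosl1 at 1.31. The immediate early factors Egr1 (0.433) and Klf4 (from 135 to 62.6 RPKM, 0.464) were lower, and the phosphatase Dusp5 higher (2.37). Over the 26 tested, 6 were higher and 3 lower.

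NF-κB subunits and inhibitors had none of 14 genes past the limits. Nfkb2 had 21.8 RPKM in TNFa and 28.6 in TGFb_TNFa, Relb 10.0 and 11.4, and Rela 45.5 and 57.2, folds of 1.31, 1.14 and 1.26. The inhibitor Nfkbia, IκBα, which NF-κB itself induces, came close to the limit and passed it with TMM factors, from 51.4 to 26.8 RPKM (0.521, interval 0.499 to 0.544), against 18.8 RPKM in control and 12.3 in TGFb. Bcl3 went from 38.2 to 23.3 RPKM (0.61). In the list of TNF receptor signalling 2 of 24 were higher, Relt (5.0) and the Tweak receptor Tnfrsf12a (from 242 to 533 RPKM, 2.2). Tnfaip3, the feedback enzyme A20, had 5.66, 17.3, 12.1 and 23 RPKM in control, TGFb, TNFa and TGFb_TNFa, the highest value being with both cytokines (fold 1.89 over TNFa). The receptor Tnfrsf1a was at 0.655.

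Among the chemokines, Cxcl5, which attracts neutrophils, had 28, 4.92, 68.4 and 14 RPKM in control, TGFb, TNFa and TGFb_TNFa, a fold of 0.205 (0.195 to 0.216), so that its level with both cytokines was under that of control. Cxcl3 followed the same pattern, at 2.47, 0.836, 9.61 and 1.52 RPKM, with a fold of 0.158 (0.129 to 0.192). Ccl20, a chemokine for Ccr6-bearing cells, had 0.149, 0.0866, 1.98 and 0.398, a fold of 0.201, and did not reach the level limit. Ccl9 (0.163) and Cx3cl1, fractalkine (from 9.46 to 1.76 RPKM, 0.186), were lower as well, making 4 of 13 tested. Ccl17 alone was higher, with 0.0775, 2.37, 0.351 and 2.59 RPKM in the 4 libraries, a fold of 7.37 (4.19 to 14). Ccl2, which had 0.618 RPKM in TNFa, had 1.57 in TGFb_TNFa.

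Cytokines and their feedback genes differed in both directions. Beside Il11, Csf2, GM-CSF, had 0.232, 3.51, 0.435 and 5.21 RPKM in control, TGFb, TNFa and TGFb_TNFa (fold 12, interval 8.09 to 18.5), Lif 3.35, 18.7, 3.99 and 20.9 (5.24) and Csf1 1.84, 9.0, 3.22 and 9.3 (2.89), and Cish, a feedback inhibitor of cytokine receptors, was at 3.23. Lower were the alarmin Il33 (from 12.7 to 1.67 RPKM, 0.132, interval 0.118 to 0.147), the IL-1 receptor antagonist Il1rn (from 2.8 to 0.224 RPKM, 0.0799, interval 0.0579 to 0.108), the IL-22 receptor chain Il22ra1 (0.226) and Socs2 (0.41). The list thus had 5 higher and 4 lower of 25.

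Complement and acute phase genes leaned lower, 5 of 11 tested, with a median log2 fold of -1.76. C3, the central complement component, had 0.245, 0.0983, 2.18 and 0.136 RPKM in control, TGFb, TNFa and TGFb_TNFa, a fold of 0.0624 (0.0463 to 0.0823). Cp, the copper oxidase ceruloplasmin, had 17.3, 4.74, 32 and 5.95, a fold of 0.186. Cfb (from 31.3 to 1.65 RPKM, 0.0529, 6.32% unique), C1rl (0.133) and Lbp (0.295) were lower and C1s1 higher (from 5.53 to 13.8 RPKM, 2.49). On unique reads the fold of Cfb was 0.0694, but its level was under the limit and it was not called. Interferon-stimulated genes had none of 21 past the limits, and Irf1 was at 1.01. Antigen presentation genes had 1 of 21 higher, the NKG2D ligand Ulbp1 (2.25); H2-K1 was at 0.653 and H2-D1 at 0.808.

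**Figure D4:**
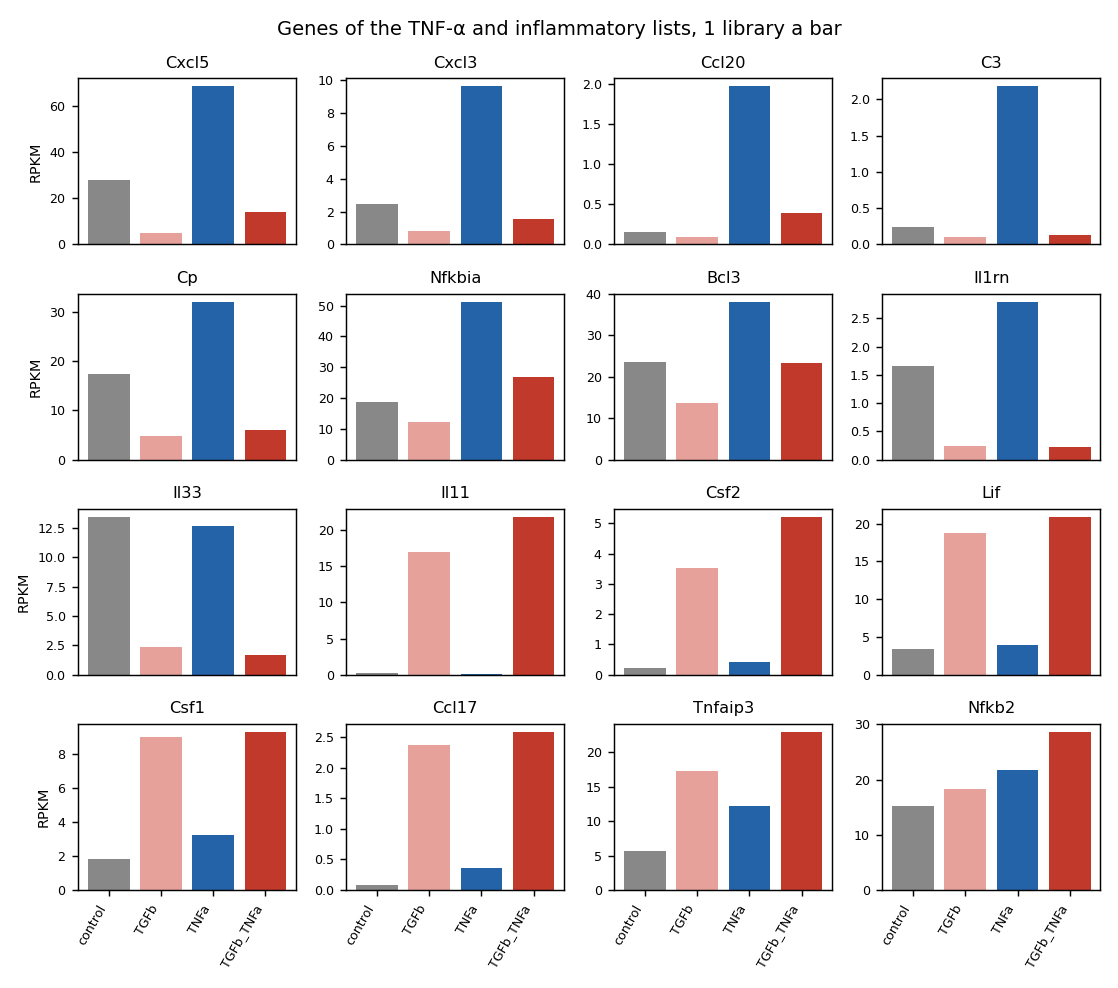
RPKM (y axis, from 0, each panel with its own scale) of 16 genes of the NF-κB, TNF receptor, chemokine, cytokine and complement lists, 1 bar for each library (x axis: control, TGFb, TNFa, TGFb_TNFa). The panels were chosen after the values were seen. For Cxcl5, Cxcl3, Ccl20, C3, Cp, Nfkbia and Bcl3 the bar of TNFa is the highest, and for Il11, Csf2, Lif, Csf1, Ccl17, Tnfaip3 and Nfkb2 that of TGFb_TNFa; Il1rn and Il33 have their low bars in both libraries with TGF-β.

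Growth factors differed in both directions, 13 higher and 7 lower of 38. Endothelin-1, Edn1 (from 0.813 to 5.16 RPKM, 6.35), the neurotrophin Bdnf (from 2.8 to 11 RPKM, 3.93), Pgf (4.24) and Fgf18 (2.73) were higher. Angptl2 (20.1, 11.4% unique reads) and Fgf2 (6.27, 13.1% unique) were higher on reads that are mostly shared. On unique reads their folds were 26.8 and 64.7, but their levels were under the limit and neither was called. Lower were Fgf1 (from 15.8 to 1.23 RPKM, 0.0777, 5.95% unique), the hepatokine Fgf21 (0.0584), Angpt2 (0.119, 37.9% unique), the EGF receptor ligand betacellulin, Btc (0.303), stem cell factor, Kitl (0.3), and Sema3e (0.496). Vegfa stayed at 140.1 RPKM in TNFa and 133 in TGFb_TNFa.

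The binding proteins for insulin-like growth factors went opposite ways. Igfbp7 and Igfbp4 (from 34.2 to 82.7 RPKM, 2.42) were higher while Igfbp5 was lower, as described above. The receptor Igf1r had a fold of 1.66 and Insr one of 0.988.

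None of 23 lineage factors tested was higher and 9 were lower, with a median log2 fold of -0.87. Hnf4a, the factor of hepatocytes and gut epithelium, went from 72.1 to 19.9 RPKM (0.276, interval 0.269 to 0.283), and Cdx2, the intestinal homeobox factor, from 5.32 to 0.669 RPKM (0.126, interval 0.103 to 0.153). Cebpa (0.287), Pparg (0.409), the bile acid receptor Nr1h4 (0.345) and the epithelial Ets factors Elf3 (0.271) and Ehf (0.239) were lower. Id1 went from 32.6 to 8.35 RPKM (0.256) and Id3 from 5.8 to 0.721 RPKM (0.124), both inhibitors of bHLH factors, while Id2 remained at 1.1. Foxa1 (1.31), Foxa2 (0.842) and Gata6 (0.857) kept within 1.5-fold.

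Gut and liver markers had the lowest median of all lists with at least 6 genes tested, -4.26 in log2, 9 of 16 being lower and none higher. Lgals4, an intestinal galectin, went from 413 to 7.69 RPKM (0.0186, interval 0.0174 to 0.0199), Rbp4, the plasma carrier of retinol, from 391 to 39.4 RPKM (0.101, interval 0.0975 to 0.104), and Apoa1, of high-density lipoprotein, from 3.7 to 0.0852 RPKM (0.023). Muc1 (from 31.2 to 10.9 RPKM, 0.35) was lower, and the mucin Muc4 had 1740 reads in TNFa and 5 in TGFb_TNFa, under the level limit. Apob (1.24) and Apoe (1.09) stayed near 1. Among airway and alveolar markers the water channel Aqp5 was lower (from 72.3 to 33.6 RPKM, 0.464) and Foxj1, the factor of ciliated cells, higher (from 7.26 to 14.9 RPKM, 2.05), of 6 tested. The call for Foxj1 was lost with TMM factors (1.97).

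Of 23 glycolysis and hypoxia-related genes tested, 9 were lower and 3 higher, with a median log2 fold of -0.89, and the summed level of the list went from 13011 to 6560.3 RPKM, of which Gapdh was 5557 and 2742. The list leaves out aldolase A, which the tables hold as Aldoa_1 (from 722 to 328 RPKM, 0.454). Pgk1 was at 0.309, Gpi1 at 0.487, Pfkp at 0.319, Pdk1, which holds pyruvate back from the mitochondria, at 0.359, and the hypoxia-induced prolyl hydroxylase Egln3 at 0.131 (from 27 to 3.55 RPKM). Ldha (from 964 to 525 RPKM, 0.545), Tpi1 (0.511) and the glucose transporter Slc2a1 (0.539) were just short of the limit. Higher were hexokinase 2, Hk2 (from 16.8 to 54.8 RPKM, 3.26, interval 3.18 to 3.34), and Pfkfb3 (2.61) and Pfkfb4 (2.47), which make the activator of phosphofructokinase.

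Detoxifying genes of the Nrf2 and glutathione list had 15 of 32 lower and 1, Hmox1, higher, with a median log2 fold of -1.06. Cyp2s1, a cytochrome P450, went from 264 to 14.7 RPKM (0.0559, interval 0.054 to 0.0578), the glutathione transferase Gsta4 from 207 to 22.8 RPKM (0.11), the aldehyde dehydrogenase Aldh3a1 from 56.8 to 5.34 RPKM (0.0941), Aldh1a1 from 11.2 to 0.776 RPKM (0.0696) and Gstm1 from 55.7 to 15 RPKM (0.27). Nqo1 was at 0.205 and the cystine transporter Slc7a11 at 0.414. Other classical Nrf2 targets were above 1, with Txnrd1 at 1.6, Gclm at 1.32 and Srxn1 at 1.32.

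Of 31 genes of cholesterol and fatty acid synthesis Pmvk (0.498) passed the limit, and the median log2 fold was -0.40. The counting interval lay below 1 for 25 of the 31, beside 4049 of all 11729 genes tested. Sqle was at 0.627. In the unfolded protein response the chaperone Hspa5 was at 1.08, and Trib3 (0.42) and Herpud1 (0.376) were the lower genes of 23.

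Few cell cycle genes passed the limits. Of 30 S phase genes E2f2 was lower (0.341, from 2.68 to 0.916 RPKM) and none higher, with a median log2 fold of 0.34, E2f1 being at 1.94 and Ccne1 at 1.99. The counting interval lay above 1 for 26 of these 30 and below 1 for 2. Over all 11729 genes tested it did so for 5380 and 4049. None of 30 genes of G2 and mitosis passed a limit, and Mki67 was at 1.02. The cytostatic program had 3 higher and 2 lower of 12 tested, the lower ones being Id1 and Id3, given above. The stress genes Gadd45b (from 14.4 to 43.4 RPKM, 3.01), Gadd45g (2.32) and Gadd45a (from 107 to 227 RPKM, 2.12) were higher, whereas the cyclin-dependent kinase inhibitor Cdkn1a, p21, went from 64.3 to 38.2 RPKM (0.594, interval 0.577 to 0.61) and Myc was at 1.26; Cdkn2b was not among the genes tested.

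None of 39 cytosolic ribosomal protein genes and none of 13 mitochondrial mRNAs passed a limit, with median log2 folds of -0.15 and -0.22. Among 16 reference genes Gapdh, Pgk1 and the transferrin receptor Tfrc (0.423) were lower, and the sum of the list was 15436 RPKM in TNFa and 10700.4 in TGFb_TNFa. In these sums Gapdh, at 1.06% unique reads, was 5557 and 2742, and Pgk1 was 1379 and 426. On unique reads the fold of Gapdh was 0.504 and its call was lost. By contrast, Hprt (0.835), Tbp (1.03) and Sdha (0.911) were near 1. Of 18 splicing regulators linked to EMT Rbm47 was lower (from 11.5 to 4.52 RPKM, 0.392), and of 14 genes of the BCL2 family Bnip3, a mitophagy receptor, was lower (0.262).

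The same addition without TNF-α, TGFb over control, shares no library with this comparison, and its values for the called genes lie close. Of the 455 higher genes that also had 100 reads there, 452 were above 1 and 393 above 2-fold, with a median fold of 3.36 against 3.19 with TNF-α. Of the 512 lower genes, 511 were below 1 and 446 under 0.5, with medians of 0.318 and 0.324. The shares of all genes tested past these limits without TNF-α are not given here, so these counts have no base beside them. Over 9831 genes with 100 reads in each pair and an RPKM above 2 in TNFa or TGFb_TNFa, the log2 folds with and without TNF-α lay within 0.5 of each other for 8948 (91%). They were over 1 apart for 48 genes, 0.488% of those compared, 17 with the greater log2 fold with TNF-α and 31 with the smaller. For 41 of the 48 the counting interval of the difference excluded 0. Of the 937 genes whose counting intervals in the pairs lay on opposite sides of 1, none was past 1.5-fold in both directions. In the pair without TNF-α the log2 fold moved with the GC content of the transcript (Spearman's rho -0.301 across genes), while with TNF-α rho was 0.0178. After centring both folds in bins of GC content 49 genes were over 1 apart, 39 of them among the 48.

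Named genes whose log2 fold differed most are few and mostly of low level. C3 had a fold of 0.4 (0.271 to 0.583) without TNF-α and 0.0624 with it, a difference of -2.68 in log2 (95% counting interval -3.35 to -2.02); its level was 0.245 RPKM in control and 2.18 in TNFa. Ccl17 had a fold of 30.6 (10.2 to 151) without TNF-α, on 3 reads in control, and 7.37 with it (difference -2.05, -3.90 to -0.21), and the difference for Cmtm8 was -1.75 and for the histone gene Hist1h2bg -1.80, the last with 26% unique reads. The gene model Gm26992 had 10.2, 58.3, 50.3 and 57 RPKM in control, TGFb, TNFa and TGFb_TNFa, its lowest level being that of control. In the other direction Pglyrp1, an antibacterial peptidoglycan-binding protein, was less reduced with TNF-α, at a fold of 0.078 against 0.0128 (0.00153 to 0.0471) without it (difference 2.61, 0.41 to 4.81). The models Gm49369 (2.52), Gm42674 (2.36) and Gm12184 (1.75) had 0.425%, 20% and 2.3% unique reads and overlap other genes.

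**Figure D5:**
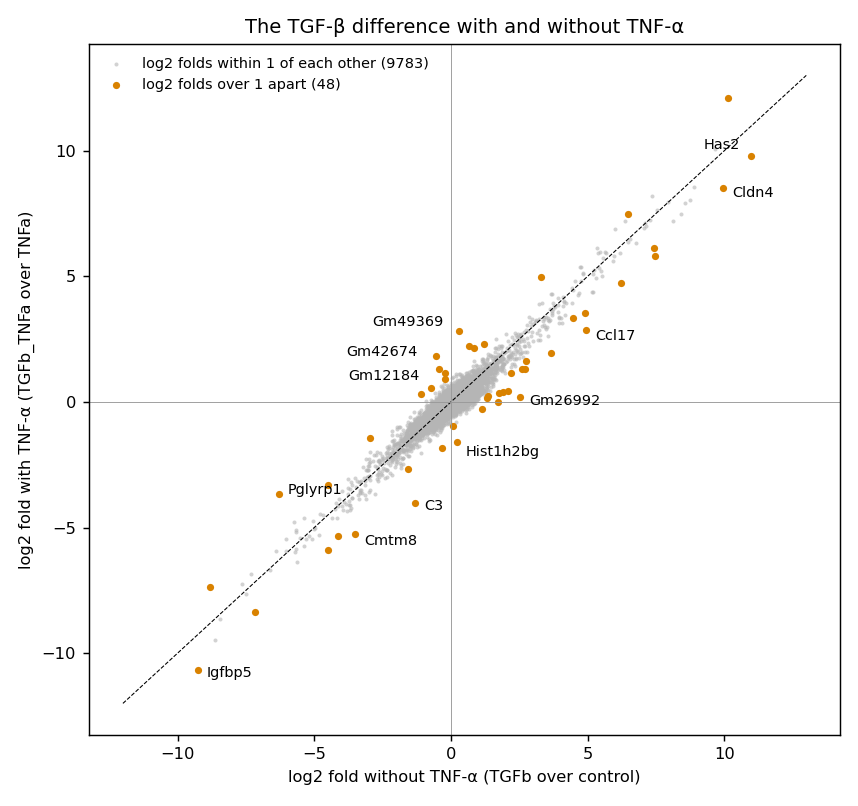
Log2 fold of TGFb_TNFa over TNFa (y axis) against log2 fold of TGFb over control (x axis) for the 9831 genes compared, with the line of equality dashed. The 48 genes in orange have log2 folds over 1 apart, and all others are grey. C3, Ccl17 and Hist1h2bg lie below the line and Pglyrp1 and Gm49369 above it.

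Reads in introns, which come mostly from unspliced RNA, differed in the same direction as the reads in exons for most called genes. Of 425 higher genes with at least 20 intron reads over both libraries, 418 had more intron reads per mapped read in TGFb_TNFa, with a median intron fold of 2.77 beside an exon fold of 3.14. Of 476 lower genes, 471 had fewer, with medians of 0.383 and 0.326. Over all 11081 genes with such reads 58.3% were above 1 and the median was 1.06. Fn1 had 945 intron reads in TNFa and 7711 in TGFb_TNFa, and Hnf4a 940 and 336. The tables count reads without strand, and total exon reads include reads with several hits.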

How the data were processed

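RNA from CMT64 cells was sequenced in 4 libraries, 1 per condition. Per-gene counting and mapping of trimmed reads were done by the authors in CLC Genomics Workbench, whose version is not given in the sources used here, at a mismatch cost of 2, insertion and deletion costs of 3, length and similarity fractions of 0.8 and at most 30 hits; the build mm10 is from the submitters' processing notes. The deposited counts are whole reads, total or unique, in exons, and intron reads. The deposited RPKM values rest on the total reads in exons, as the authors computed them, and imply 77606742 mapped reads in TNFa and 75984151 in TGFb_TNFa, 75358896 in control and 81245906 in TGFb. The exon reads were 67481462 to 71898396 per library and 87.3% and 88.2% unique in TNFa and TGFb_TNFa.

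Folds are ratios of RPKM, with a Clopper-Pearson interval on the share of the pair's reads that fell in TGFb_TNFa. Intervals for differences of log2 folds use a normal approximation to the 4 read counts. A library at 0 reads was set to a floor of 3 reads per library. With 1 library a side there is no test, no replicate can be left out, and no paired fit is possible. The interval and the call rule were run on simulated Poisson counts. These hold counting error only, as the interval assumes, so that differences between cultures were not tested. Lists (45) were described by counts and medians beside all genes tested. Promoters are from RefSeq, GRCm38.p6, which has the coordinates of mm10, taking the start site nearest the 5′ end of the gene in the files. GC content is that of the longest GENCODE transcript.

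Named genes are those with the 15 most raised and 15 most reduced folds among the called (no unnamed models), the 5 largest gains and losses in RPKM, the 5 largest and smallest differences from the fold without TNF-α, genes named in the paper for RNA-seq, and in each list members past the fold, against the majority or with most reads. Some genes that the rule names are not reported here. The lists and members were chosen with earlier results of these data known. Alternatives were TMM factors (edgeR 4.0.16) and DESeq2 (1.42.0) size factors in R 4.3.3, unique reads, other limits on level, reads and fold, pseudocounts and centring in GC bins. Scripts ran in Python 3.11.15 with scipy 1.17.1, pandas 2.3.3 and numpy 2.4.6, and matplotlib 3.10.9 drew the figures.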

Additional observations from a re-analysis of the deposited data

Results flagged for a closer look

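Of the genes named, 4 had counting intervals on opposite sides of 1 with and without TNF-α, each pair being 1 library against 1, so that the difference was not tested against the spread between cultures. Over all genes compared 937 (9.53%) had such intervals. The gene model Gm42674 had a fold of 3.52 (2.27 to 5.62) with TNF-α and 0.686 (0.468 to 0.999) without, a difference of 2.36 in log2, and it overlaps S100a3 and S100a4. Gm12184, which overlaps Trim7, had 2.47 and 0.733, a difference of 1.75. Gm21887 had 1.63 and 0.848, a difference of 0.95. The unique reads of these models were 20%, 2.3% and 1.44%. Tjp1, ZO-1, had 0.705 (0.689 to 0.722) with TNF-α and 1.07 (1.04 to 1.09) without, a difference of -0.60. Its RPKM in control, TGFb, TNFa and TGFb_TNFa was 23.8, 25.3, 31.4 and 22.2, and 99.2% of its reads were unique. Folds without TNF-α moved with the GC content of the transcript (Spearman's rho -0.301), which was 46.8% for Tjp1. Whether this bears on the genes with opposite intervals was not tested.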

How the results depend on the processing

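The counts of 456 higher and 512 lower genes stayed within 1.5 times of these values under TMM factors (428 and 565), DESeq2 size factors (429 and 560), unique reads (426 and 493), RPKM limits of 1 (558 and 626) and 5 (349 and 382), no read minimum (457 and 512), at least 500 reads (428 and 483), pseudocounts of 0.1 (450 and 505) and 1 RPKM (381 and 417), and the whole counting interval past the fold (412 and 455). With a fold of 1.5 they were 961 and 984, and with a fold of 4 they were 165 and 184, by construction of the limit. Without a read minimum the list medians that changed sign were those of complement and acute phase genes (0.0305), airway and alveolar markers (0.0305), haematopoietic markers (-0.317) and endothelial markers (0.393), since genes with few reads then enter. The number of genes whose log2 folds with and without TNF-α were over 1 apart was 48, and 48, 47, 47 and 49 with TMM factors, DESeq2 size factors, unique reads and GC bins, of which 48, 47, 31 and 39 were among the 48. Among list members, TMM and DESeq2 factors both ended the calls of Fosl2 and Foxj1. Both added lower calls for Bmp2, Ctnnb1, Oasl1, H2-T23, Lss, Pkm and Tpi1, and TMM factors alone added those for Fhl2 and Nfkbia. Unique reads ended the calls of Vasn, Cfb, Angptl2, Fgf2, Angpt2, Fgf1 and Gapdh and added Ccne2. Among the calls ended by unique reads, Cfb, Angptl2, Fgf2, Angpt2 and Fgf1 kept folds past the limit and fell short on level. Scaling moved the median log2 fold of all genes from 0.06 to 0.00 at most. The folds of single named genes moved more often than the counts. With TMM factors 28 of these folds left their counting interval and 51 did not, and DESeq2 size factors gave the same numbers. With a pseudocount of 1 RPKM 55 left it and 24 did not. Limits: with 1 library per condition the spread between cultures is unknown and no library could be left out, so every call rests on both libraries. Depth limits folds of genes with few reads in a library, such as Has2, Tmem59l and Tff3, whose intervals span more than 10-fold. No paired analysis was possible because each condition has 1 library.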

Other observations

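Gene families outside the lists were grouped by symbol after the values were seen, and have no test. Of 195 genes tested with symbols of the Slc series, which are mostly membrane transporters, 15 were lower and 1, the fatty acid transporter Slc27a1, was higher, beside 4.37% and 3.89% of all genes; Slc12a2, the sodium-potassium-chloride cotransporter of secretory epithelia, went from 140.1 to 36.2 RPKM (0.258), the sulfate transporter Slc26a2 from 102 to 18.7 RPKM (0.182) and the glutamine transporter Slc1a5 from 72.9 to 29.6 RPKM (0.406). Both metallothioneins tested, Mt1 (0.378) and Mt2 (0.222), were lower, as was Trf, transferrin, the iron carrier of plasma (from 525 to 13 RPKM, 0.0248, interval 0.0239 to 0.0258). Of 7 Prss serine protease genes 4 were higher, among them Prss22 (from 3.82 to 31 RPKM, 8.13) and Prss27 (48.6), and 1 lower. Lce1f and Lce1g, genes of the cornified envelope of skin, were the only late cornified envelope genes of 21 listed to reach 100 reads, and both were higher (80.1-fold for Lce1g, 20.1 RPKM in TGFb_TNFa). Tnnt2, cardiac troponin T, went from 40.8 to 234 RPKM (5.73, interval 5.55 to 5.91), and Ptgs2, the inducible cyclooxygenase, and its neighbour Pla2g4a, the phospholipase that frees its substrate, went from 16.2 to 55.2 RPKM (3.41) and from 17.1 to 51.4 RPKM (3.0).

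Called genes often lay next to each other. Of the 456 higher genes 85 (18.6%) had a higher gene as a direct neighbour among the tested genes on the chromosome, against 7.11% of the other genes tested, and of the 512 lower genes 92 (17.97%) had a lower neighbour, against 8.03%. Counting neighbours of another name root that do not overlap, these were 65 (14.3% against 6.30%) and 63 (12.3% against 7.16%). Prr7, Dbn1 and Pdlim7 were higher side by side on chromosome 13, and Inpp5a, Adgra1 and Adam8 on chromosome 7. Lower runs were the trefoil genes on chromosome 17, the keratins Krt12, Krt20 and Krt23 on chromosome 11, and Rassf6, Cxcl5 and Cxcl3 on chromosome 5. These shares were noticed in the data and have no test.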
